A study of Mus musculus with 30 samples.

Results

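Akr1c6, Akr1c14, Akr1c18, Akr1c20, Akr1c12 and Akr1c13 are 6 mouse genes of the aldo-keto reductase 1C family, and their transcripts were followed in 5 tissues of newborn mice that lack the nuclear receptor ERRγ (gene Esrrg) and of wild-type mice. Every probe set was taken whose array annotation gives one of these symbols, which gave 8 of the 22626 probe sets and 6 of the 12393 genes on the array. Of the 8 probe sets, 7 carry 1 symbol and the other carries both Akr1c12 and Akr1c13 (the shared probe set). Akr1c20 has 2 probe sets and each of the other genes has 1 of its own. The genes were chosen by their measured signals, which were lower in null than in wild-type liver, and by their levels across tissues, so those comparisons are described here without a test.

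The 10 groups were ERRγ null brain, kidney, stomach, liver and salivary tissue and the same 5 tissues of wild-type mice, with 3 arrays each and 30 in all. Both genotypes were neonatal, of mixed SV129/C57BL/6 background, of unknown sex per the labels and kept on standard chow. Xist, the transcript of the inactive X chromosome, read 6.34 to 7.22 on null replicate 1 and wild-type replicate 3 of every tissue and 10.68 to 11.38 on the other arrays, so each group held 1 array of low and 2 of high Xist. The labels do not describe the construction of the null allele, and they do not state whether replicates were different animals. The p-values therefore measure the spread between these samples, part of which may be technical. The study's title concerns potassium homeostasis, and heart, which it also names, was not analysed here.

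AKR1C enzymes are soluble reductases that use NADPH or NADH to interconvert ketones and alcohols, above all at fixed positions of the steroid skeleton. In this way they activate or inactivate sex steroids, progesterone and other ligands of steroid receptors, and in liver they also clear bile acid intermediates, prostaglandins and foreign carbonyl compounds. Rodents carry several AKR1C copies in 1 cluster, and the copies differ in which position of the steroid they act on and in the tissue that expresses them. Estrogen-related receptors such as ERRγ are orphan nuclear receptors known for driving genes of mitochondrial energy metabolism.

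Values are log2 MAS5 signals, a summary of the probes of each probe set, so 1 unit is a 2-fold difference. A probe set was tested in a tissue where its 6-array mean was at or above the 40th percentile of that tissue, a filter level between 5.245 in liver and 5.39 in brain, and values under it are called dim. Levels are compared within a probe set and not between probe sets. Array medians lay between 5.80 and 6.08. Esrrg has 1 weak probe set, and it is not stated whether it lies in the deleted stretch, so it is no check of genotype. It passed as lower in none of the 5 tissues (limma): the difference was 0.16 in brain, 0.07 in kidney, -0.02 in liver and -0.03 in salivary tissue, and in stomach it was higher by 0.49 (adjusted p = 0.0312). Hepatocyte markers checked the liver label: 10 of 10 measured markers were above the filter level in null and in wild-type liver, with Alb, which encodes serum albumin, at 13.04 ± 0.19 and 12.94 ± 0.07 (SD, n = 3 each).

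The 6 genes were lower in null than in wild-type liver, and the size of the fall differed between them. All 8 probe sets read lower on each null liver array than on any wild-type liver array, as did 9.70% of the 22626 probe sets, and the median difference was -1.84 over the 8 probe sets against 0.03 over all. After the filter, 7 of the 8 remained, since 1 probe set of Akr1c20 was dim in both groups. In the fit over all tested liver probe sets, 3.46% were called lower and 3.47% higher in null (limma, Benjamini-Hochberg adjusted p under 0.05). Since the fall in liver chose the genes, no weight rests on these counts. In whole tissue, fewer cells that express a gene and less RNA of it per cell cannot be told apart.

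Akr1c6 encodes a 17β-hydroxysteroid dehydrogenase that interconverts weak and potent sex steroids, and it had the largest difference of the 8 probe sets. Its signal was 4.87, 6.62 and 6.06 on the 3 null liver arrays, against 10.05, 10.62 and 10.80 on the 3 wild-type liver arrays. All null arrays lay far under the lowest wild-type array, and null replicate 1 was under the filter level. The means were 5.85 ± 0.89 in null and 10.49 ± 0.39 in wild-type liver (SD, n = 3 each), a log2 difference of -4.64 or 24.9-fold lower on the linear scale. Its SE was 0.39 in the limma fit, which draws the spread of each probe set towards that of all probe sets and gives the SEs that follow, and 0.56 from the 2 SDs alone.

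Akr1c14 is the mouse counterpart of the rat 3α-hydroxysteroid dehydrogenase, which reduces dihydrotestosterone and other 3-ketosteroids. Its liver signal was 5.04, 7.37 and 5.07 in null and 8.47, 8.98 and 9.04 in wild-type arrays. Null replicates 1 and 3 were below the filter level and null replicate 2 stood well above them, so the null SD of 1.34 was the widest among the 8 probe sets, against 0.31 in wild type. The log2 difference was -3.0 ± 0.53 (SE; 0.79 from the SDs alone), or 8.02-fold lower in null liver, a fold that rests on null values at or under the filter level on 2 of 3 arrays.

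Akr1c18 encodes 20α-hydroxysteroid dehydrogenase, which turns progesterone into a weakly active metabolite and is best known from the corpus luteum. It read 5.84, 6.67 and 5.74 in null liver, against 8.34, 8.66 and 8.59 in wild-type liver. The 3 wild-type arrays lay close together and above every null array. The log2 difference was -2.45 ± 0.24 (SE), or 5.45-fold lower in null liver.

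Akr1c20 was measured by 2 probe sets. The brighter read 4.62, 5.81 and 5.53 in null and 8.17, 8.26 and 9.37 in wild-type liver, a log2 difference of -3.28 ± 0.37 (SE; 0.53 from the SDs alone), or 9.71-fold lower. The dimmer read 3.67, 3.78 and 3.86 in null and 4.42, 4.19 and 4.72 in wild-type liver. The direction was the same, but its mean was under the filter level in all 10 groups, so its difference of -0.67 is one between dim values and the 2 probe sets disagree in size.

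Akr1c12 and Akr1c13 are close copies whose products oxidise hydroxysteroids and other ring-bearing alcohols. They were the least reduced of the 6 genes in null liver. Akr1c13 read 7.41, 8.69 and 7.94 in null, against 9.24, 9.43 and 9.08 in wild-type liver. Akr1c12 read 8.07, 8.62 and 7.98 in null, against 9.14, 9.21 and 9.41 in wild-type liver. Every null array stayed well above the filter level for both genes. The log2 differences were -1.24 ± 0.28 (SE; 2.36-fold lower) for Akr1c13, -1.03 ± 0.19 (2.04-fold lower) for Akr1c12 and -1.04 ± 0.20 (2.06-fold lower) for the probe set that carries both symbols.

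**Figure D1:**
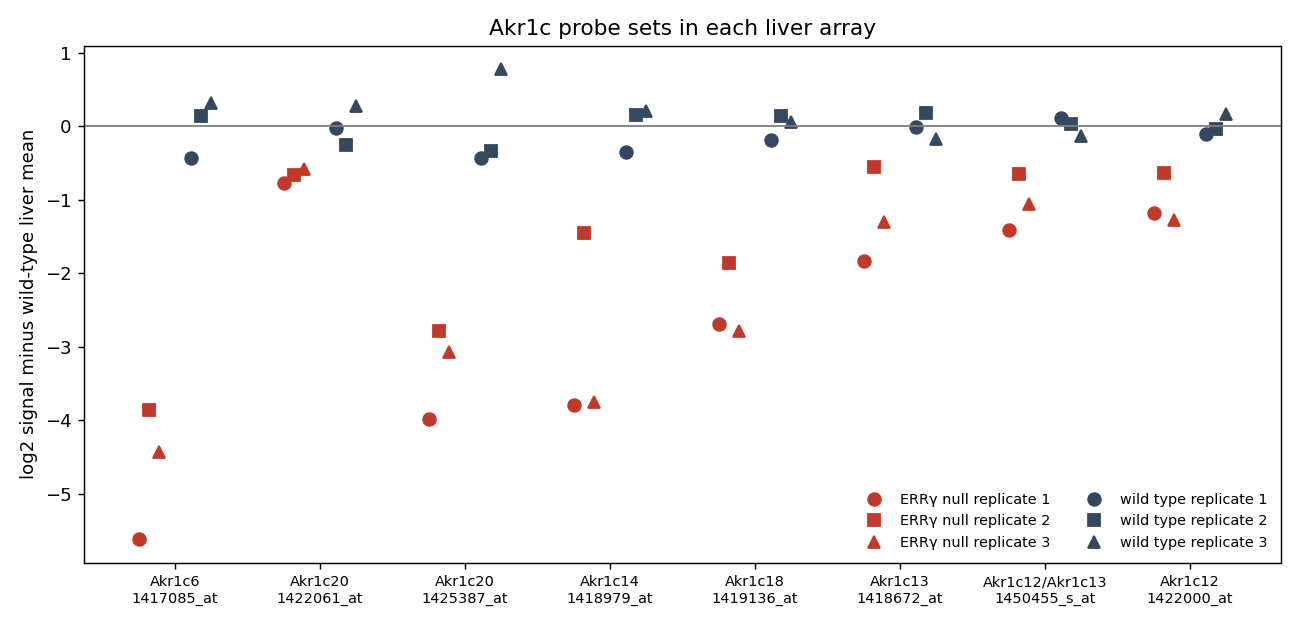
Each liver array's log2 signal minus the wild-type liver mean of the same probe set, for the 8 probe sets of the 6 Akr1c genes, with ERRγ null arrays left of wild-type arrays and a marker shape for each replicate number. All null points lie under all wild-type points of their probe set, and null replicate 2 is the highest null array in 7 of the 8.

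The 3 null livers were not equal. Null replicate 2 had the highest signal of the 3 in 7 of the 8 probe sets, and its median deviation from the wild-type means was -1.06, against -2.27 for null replicate 1 and -2.05 for null replicate 3. The wild-type arrays lay between -0.15 and 0.18 on this scale. The same replicate was the highest of the null livers in 58.6% of the 1709 tested probe sets that were lower in null liver without overlap, so its milder fall was shared beyond the family. Without null replicate 2 the median difference over the 8 probe sets was -2.16, against -1.84 with it.

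The summed hepatocyte marker signal overlapped between the groups. It was 59560 to 67080 in null and 57920 to 64100 in wild-type liver on the linear scale, 9 of the 10 markers did not pass the test, and Tat, which encodes tyrosine aminotransferase, was higher by 2.58 (limma, adjusted p = 0.00435). Single markers of other cells changed. The summed signal of 6 erythroid markers was 5839 to 6640 in null and 4765 to 5420 in wild-type liver. Of these, 5 did not pass, and Hba-a1 (-0.63) and Klf1 (-0.14) read lower on average in null. Alas2, the heme synthesis enzyme of red cell precursors, was higher by 0.51 (limma, adjusted p = 0.0452). The 7 macrophage markers summed to 3861 to 4810 in null and 4432 to 5508 in wild-type liver. Vsig4, a receptor of resident macrophages, was lower by 0.82 (limma, adjusted p = 0.0433). The other 6 did not pass, and of them only Marco read higher on average in null (0.20). The 4 fat markers summed to 623.3 to 1204 in null and 469.2 to 525.8 in wild-type liver, without overlap, and Fabp4, the 1 tested, did not pass (0.85, limma, adjusted p = 0.0521). Miox, on the proximal tubule list, was lower by 1.07 (limma, adjusted p = 0.0133). The 4 bile duct markers were all under the filter level in both. The gap between the 3′ and 5′ control probe sets of Gapdh, a measure of RNA integrity, was 4.06 ± 0.13 in null and 4.51 ± 0.28 in wild-type liver. Their part in the fall of the 6 genes was not tested, and with the Gapdh gap as a covariate the differences ran from -4.39 for Akr1c6 to -0.76 for Akr1c12 and -0.49 for the dim Akr1c20 probe set. The gap did not overlap between the groups (3.91 to 4.16 in null, 4.25 to 4.81 in wild type). A fit with this covariate therefore cannot separate the gap from genotype.

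The paralogs fell into distinct patterns across the 5 tissues. Akr1c6 and Akr1c20 were transcripts of liver: in the other 4 tissues their group means were under the filter level in null and in wild-type mice alike. Akr1c6 read 1.73 to 3.23 on the 12 null arrays outside liver and 1.42 to 2.41 on 11 of the 12 wild-type ones. The exception was wild-type stomach replicate 3 at 7.18. That array also had Alb at 11.90, against 6.19 to 7.06 on the 3 null stomach arrays and 5.93 and 10.25 on the other wild-type ones, and its summed hepatocyte marker signal was 14760. Whether liver RNA accounts for its Akr1c6 signal was not tested.

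Akr1c12 was a transcript of liver and stomach. Stomach arrays read 7.12, 8.95 and 8.95 in null and 9.29, 9.10 and 9.12 in wild type. In null mice, stomach at 8.34 ± 1.06 and liver at 8.22 ± 0.35 overlapped. In wild-type mice the liver and stomach means, 9.25 ± 0.14 and 9.17 ± 0.10, also differed by less than the spread between arrays. In brain, kidney and salivary tissue it was dim in both genotypes, with means between 2.05 and 4.72.

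Akr1c13 reached further, with group means above the filter level in all tissues except brain, although wild-type kidney was only just above it and had 1 array, at 5.08, under it. In null mice it was highest in stomach, at 9.17 ± 0.03, ahead of liver at 8.01 ± 0.64, kidney at 6.15 ± 0.32 and salivary tissue at 6.09 ± 0.27, which overlapped, and brain at 1.55 ± 0.88. In wild-type mice liver came first at 9.25 ± 0.18, followed by stomach at 8.79 ± 0.22, salivary tissue at 6.57 ± 0.34, kidney at 5.41 ± 0.33 and brain at 1.32 ± 0.22, with no overlap between neighbours. The lead thus lay with stomach in null and with liver in wild-type mice. The shared probe set followed, with stomach ahead of liver by 0.93 in null mice, without overlap, and liver and stomach overlapping in wild type.

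Akr1c14 was liver-led in wild-type mice only. In null mice its order was stomach at 6.83 ± 0.09, salivary tissue at 6.38 ± 0.23 and liver at 5.83 ± 1.34, whose arrays, 5.04 to 7.37, spanned the other 2 tissues. In wild-type mice liver at 8.83 ± 0.31 stood 2.82 above stomach at 6.01 ± 0.52, and stomach overlapped salivary tissue at 5.91 ± 0.01. Brain and kidney were dim in both genotypes.

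Akr1c18 was highest in liver and salivary tissue. In null mice salivary tissue at 6.30 ± 0.40, liver at 6.08 ± 0.51 and kidney at 5.49 ± 1.45 followed each other with overlap. In wild-type mice liver at 8.53 ± 0.17 was ahead of salivary tissue at 6.74 ± 0.17 and kidney at 5.46 ± 0.39, without overlap. Stomach and brain means were under the filter level. Stomach arrays read 2.87, 4.59 and 4.07 in null and 2.99, 5.35 and 5.96 in wild-type mice. Alb on the same arrays was 6.81, 6.19 and 7.06 in null and 5.93, 10.25 and 11.90 in wild type. Whether liver RNA accounts for part of these Akr1c18 values was not tested.

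**Figure D2:**
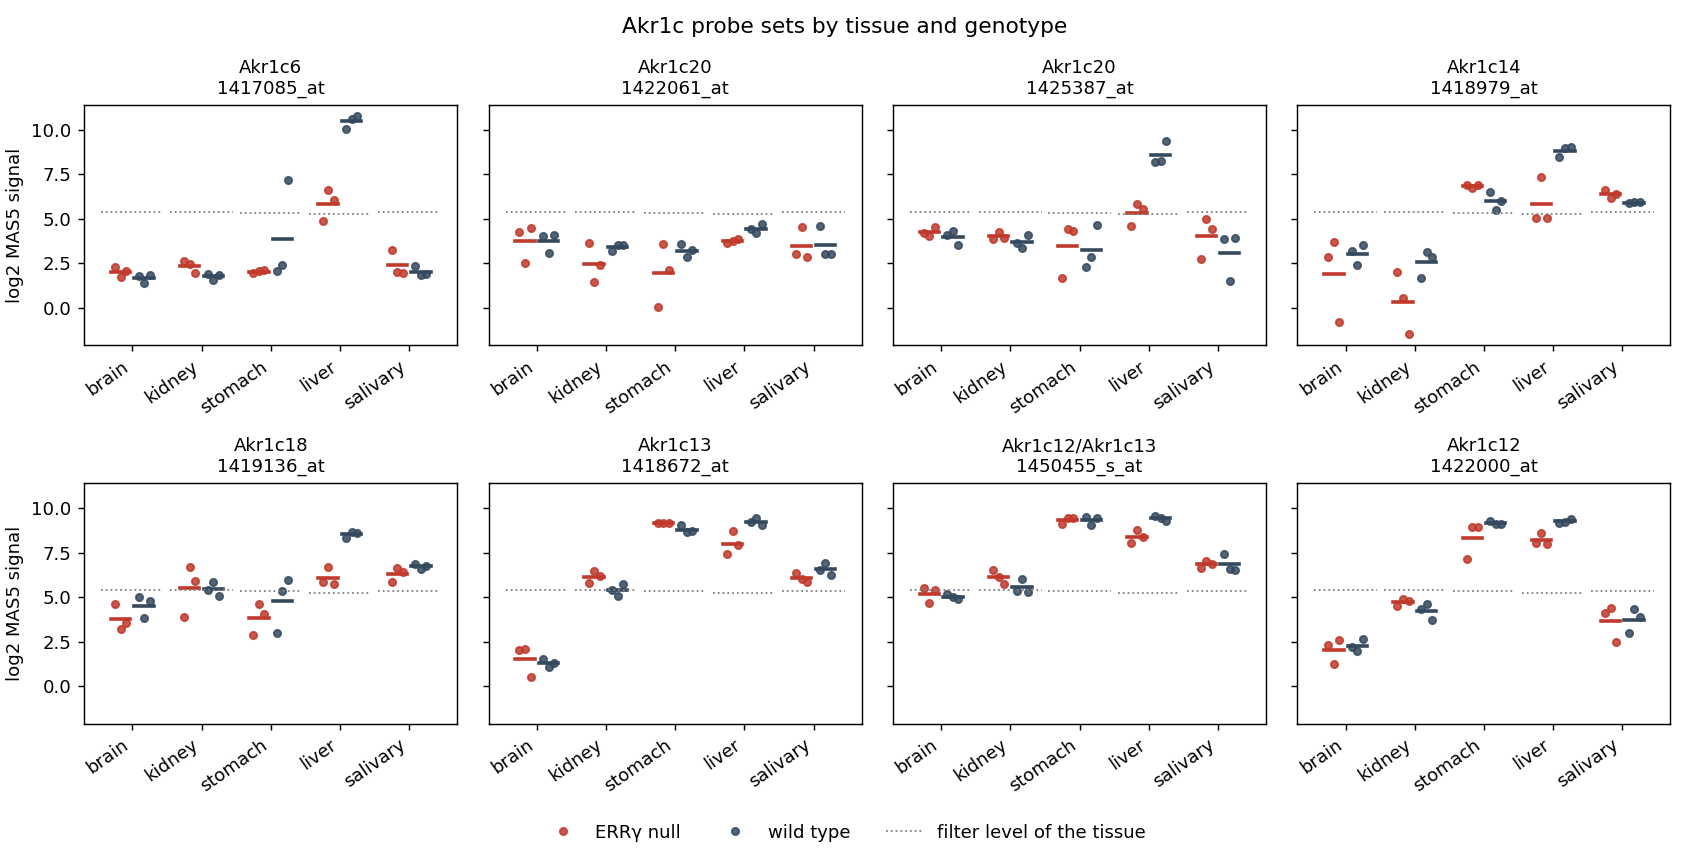
Log2 MAS5 signal of each of the 8 probe sets in 5 tissues, with ERRγ null arrays left of wild-type arrays, a horizontal bar at each group mean (n = 3) and a dotted line at the filter level of the tissue. Akr1c6 and the brighter Akr1c20 probe set rise above that line in liver only, apart from 1 wild-type stomach array for Akr1c6, and Akr1c12 and Akr1c13 are bright in stomach as well as in liver.

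As a description over the 10 group means, which share arrays and tissue, the profiles of Akr1c6 and the brighter Akr1c20 probe set had a Pearson r of 0.93, and those of Akr1c12 and Akr1c13 one of 0.90. Between these pairs r was lower, 0.28 for Akr1c13 with Akr1c20 and 0.68 for Akr1c12 with Akr1c6. The dimmer Akr1c20 probe set had an r of 0.55 with Akr1c6 and of 0.61 with the brighter one. Outside liver the group means of Akr1c6 and Akr1c20 were all dim. Their r of 0.93 therefore rests mainly on the liver means, which chose the genes. Among all genes, the profile nearest to Akr1c6 was that of Gjb1 (r = 0.98), a gap junction protein of hepatocytes, followed by Rdh5 and Lect2 (0.97 each). For Akr1c20 these were Inhbe (0.99), Rdh9 (0.98) and Prss28 (0.96). For Akr1c12 they were Dgat2 (0.97), Lgals9 and Trim25 (0.96 each). For Akr1c13 they were Tgm2 (0.99), Tor1aip2 and Cpq (0.98 each). For Akr1c18 they were G0s2 (0.97), Ttyh2 and BC004004 (0.95 each). For Akr1c14, with the lowest values, they were Ppp1r7 (0.93), Gjb2 and Gbp2 (0.91 each). Liver values differed among these neighbours: Tgm2, a transglutaminase, was at 10.92 ± 0.29 in null and 11.22 ± 0.07 in wild-type liver. G0s2, an inhibitor of the lipase that breaks down stored fat, was at 7.23 ± 1.59 in null and 10.25 ± 0.52 in wild-type liver.

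The 6 genes lie in 1 cluster on chromosome 13, in the RefSeq order Akr1c14, Akr1c18, Akr1c13, Akr1c19, Akr1c12, Akr1c6, Akr1c20, Akr1c21 and Akr1e1 (GRCm38.p6). No probe set of Akr1c19 was used here. Among the 6 genes the liver difference varied along the cluster: -3.0, -2.45, -1.24, -1.03, -4.64 and -3.28 from Akr1c14 to the brighter Akr1c20 probe set. It was smallest for Akr1c13 and Akr1c12, apart from the dimmer Akr1c20 probe set. Akr1c21 (-0.75) and Akr1e1 (-0.82) at the end of the cluster differed by less. The next gene, Akr1c21, a kidney-rich 3α- and 17α-hydroxysteroid dehydrogenase, read 4.98 ± 1.64 in null and 5.73 ± 0.85 in wild-type liver and did not pass the test (limma, adjusted p = 0.591). Akr1e1, which reduces anhydrofructose, fell by 0.82 ± 0.15 (limma, adjusted p = 0.0178), to 7.19 ± 0.08 in null against 8.01 ± 0.16 in wild-type liver. Beyond it, in a window chosen after the values were seen, the brightest of the probe sets of Klf6, a zinc finger factor, rose by 1.06 (limma, adjusted p = 0.028). Another tested Klf6 probe set did not pass (0.28, limma, adjusted p = 0.5). Pitrm1 and Pfkp did not pass, and both probe sets of Idi1, an enzyme of isoprenoid and sterol synthesis, fell, by 1.61 and 1.71 (limma, adjusted p = 0.00799 and 0.00745). On the other side of the cluster no tested probe set passed in liver. Tasor2 differed by 0.42 (limma, adjusted p = 0.24) and the tested Asb13 probe sets by -0.67 and 0.05 (adjusted p = 0.0899 and 0.942). Net1, Calm4 and Calml3 were not tested there.

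**Figure D3:**
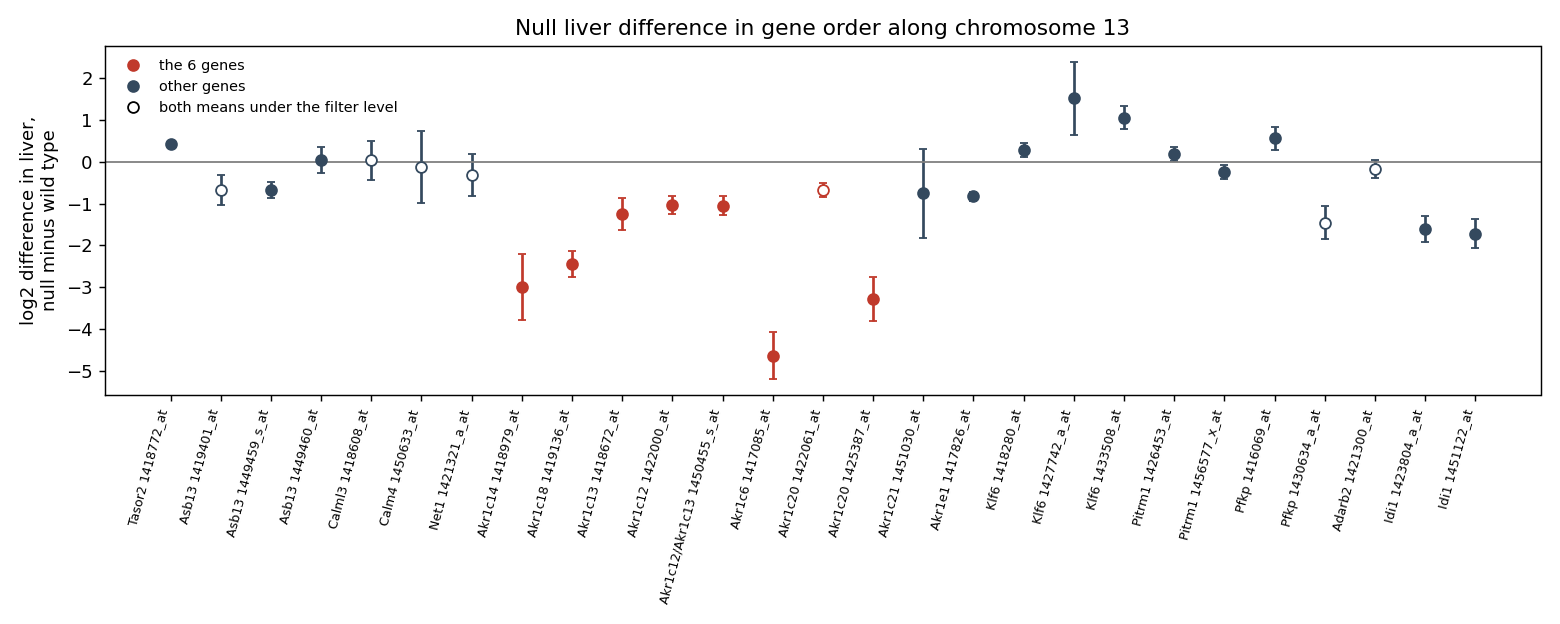
Log2 difference in liver, null minus wild type, of each probe set in gene order along chromosome 13, with the standard error of the difference from the group SDs alone (n = 3 each). Probe sets of the 6 Akr1c genes all lie under 0, and open points mark probe sets whose 2 group means were under the filter level.

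The sequence just upstream of the start site was read for 5 of the 6 genes from RefSeq on GRCm38.p6 (Akr1c20 is named only), 250 bases each. Of these, 3 are shown because they stand for the least and the most reduced genes: the close pair Akr1c12 and Akr1c13, and Akr1c6. They run 5′ to 3′ on the gene's strand, and capitals mark GTTAA or its reverse complement TTAAC, the core of the site of the liver factor HNF1.
Akr1c12, chr13:4279400-4279649, minus strand: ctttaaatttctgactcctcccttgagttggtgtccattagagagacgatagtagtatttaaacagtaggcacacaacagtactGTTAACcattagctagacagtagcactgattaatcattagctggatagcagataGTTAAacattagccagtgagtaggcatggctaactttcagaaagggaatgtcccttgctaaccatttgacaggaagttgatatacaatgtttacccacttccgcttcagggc
Akr1c13, chr13:4190937-4191186, plus strand: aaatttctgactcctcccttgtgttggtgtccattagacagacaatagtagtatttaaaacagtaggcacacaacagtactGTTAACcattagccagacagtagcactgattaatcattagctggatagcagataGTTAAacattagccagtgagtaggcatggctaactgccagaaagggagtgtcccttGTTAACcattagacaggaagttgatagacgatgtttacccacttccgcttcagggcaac
Akr1c6, chr13:4434093-4434342, plus strand: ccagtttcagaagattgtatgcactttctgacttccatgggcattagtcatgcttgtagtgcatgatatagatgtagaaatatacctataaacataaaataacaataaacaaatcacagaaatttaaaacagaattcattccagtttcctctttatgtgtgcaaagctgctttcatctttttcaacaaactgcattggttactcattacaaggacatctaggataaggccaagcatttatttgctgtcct
Akr1c12 and Akr1c13, both bright in liver and stomach, were nearly the same here: 235 of 246 aligned bases, or 95.5%, were identical. A probe for 1 copy may also bind the other's transcript. On both strands, counting a palindrome GTTAAC once per strand, GTTAA was found 5 times upstream of Akr1c13, 3 times upstream of Akr1c12, 2 times upstream of Akr1c14 and 0 times upstream of Akr1c6 and Akr1c18. Of the 32851 promoters in the table, 21.7% held it at least once and 1.12% at least 3 times. The forkhead site TGTTTAC was found once each upstream of Akr1c12 and Akr1c13 (3.17% of all promoters hold it). The ERR response element TNAAGGTCA, its shorter form AAGGTCA and the nuclear receptor core AGGTCA, each held within the one before, were in none of the 5 windows, against 1.14%, 4.08% and 14% of all promoters. The AP-1 site TGANTCA was in none of them either (6.75% of all promoters). A match is a string of letters and not a bound site, and nothing about ERRγ follows from the lack of one.

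Outside liver the members were mostly dim or passed no test, and these contrasts did not choose the genes. In brain, 0 of the 8 probe sets reached the filter level, and 0% of all tested brain probe sets were called. In kidney 3 were tested and 0 called (limma), against 0.781% of all tested probe sets, with 2 at an unadjusted p under 0.05. Akr1c13, 1 of these, read 5.82, 6.45 and 6.18 in null and 5.42, 5.08 and 5.73 in wild-type kidney. The groups did not overlap, as for 20% of all tested probe sets, and the difference of 0.74 (95% interval 0.23 to 1.25) had an adjusted p of 0.175. The shared Akr1c12 and Akr1c13 probe set, the other, differed by 0.57 (95% interval 0.00 to 1.14, adjusted p = 0.335) and Akr1c18 by 0.03 (adjusted p = 0.986). Beside this, the summed signal of 6 proximal tubule markers was 2567 to 3494 in null and 3855 to 4775 in wild-type kidney, and its part in the Akr1c13 values was not tested.

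In stomach 4 probe sets were tested and 1, Akr1c14, was called higher in null, where 23.5% of all tested probe sets were called and 11.2% called higher. Akr1c14 read 6.89, 6.73 and 6.88 in null and 6.52, 5.48 and 6.03 in wild-type stomach. The null arrays lay close together and above all wild-type ones, where 42.8% of all tested probe sets did not overlap. The difference was 0.82 ± 0.24 (SE; limma, adjusted p = 0.0377), higher in 3 of 3 null arrays, while the exact permutation test, two-sided, reached p = 0.1, the smallest possible with 3 arrays against 3. The call was lost in 11 of 17 alternatives, among them no filter (adjusted p = 0.0713) and leaving out any null array or wild-type replicate 2 or 3 (adjusted p between 0.0502 and 0.102), and the difference was 0.31 (adjusted p = 0.445) when wild-type replicates 2 and 3, whose Alb was high, were left out. The Gapdh gap stood at 3.77 ± 0.22 in null and at 2.60 ± 0.45 in wild-type stomach, and with it as a covariate the difference was 1.72 (adjusted p = 0.272). The gap did not overlap here either (3.53 to 3.97 in null, 2.28 to 3.11 in wild type), so this fit cannot separate it from genotype. Markers of stomach cells changed in both directions: of 5 tested gastric surface and parietal markers, 2 fell and 2 rose (list median 0.24). Those that fell were the proton pump genes Atp4a and Atp4b of parietal cells, by 5.04 and 4.81 (limma, adjusted p = 2.31e-07 and 5.87e-07). The summed signal of the 6 markers overlapped, at 15560 to 17680 in null and 16360 to 18000 in wild-type stomach. The epithelial keratin Krt19, from the bile duct list, fell by 1.02. Their part in the Akr1c14 values was not tested.

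Akr1c13 read 9.17, 9.14 and 9.19 in null stomach, against 9.04, 8.65 and 8.69 in wild-type stomach. The groups did not overlap, and the difference of 0.37 (95% interval 0.09 to 0.66) missed the threshold (limma, adjusted p = 0.0608). For Akr1c12 the difference was -0.83 (adjusted p = 0.178) with all null arrays under all wild-type ones, and its size turned on 1 array, null replicate 1 at 7.12, without which it was -0.22. The shared probe set differed by -0.01 (95% interval -0.35 to 0.32, adjusted p = 0.957). Thus Akr1c12 read lower in null stomach and Akr1c13 higher, neither past the threshold. Whether these differences depart from those of liver was not tested, since liver chose the genes.

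In salivary tissue 4 probe sets were tested and 0 called (limma), against 8.22% of all tested probe sets, with 1 at an unadjusted p under 0.05. That was Akr1c14, which read 6.61, 6.15 and 6.39 in null and 5.90, 5.92 and 5.92 in wild-type tissue, a difference of 0.47 (95% interval 0.03 to 0.91, adjusted p = 0.189) without overlap, as for 28.2% of all tested probe sets. Akr1c13 differed by -0.48 (adjusted p = 0.256), Akr1c18 by -0.44 (adjusted p = 0.287) and the shared probe set by -0.01 (adjusted p = 0.991). Markers of fat were uneven there, with a summed signal of 7813 to 18540 in null and 1515 to 11560 in wild-type arrays, and 0 of 4 tested passed (limma). Of 4 tested salivary acinar and duct markers, 2 fell and 0 rose (limma; list median -1.04). Their list summed to 7679 to 12370 in null and 10750 to 15060 in wild-type arrays, with overlap. The part of these markers in the Akr1c values was not tested.

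**Figure D4:**
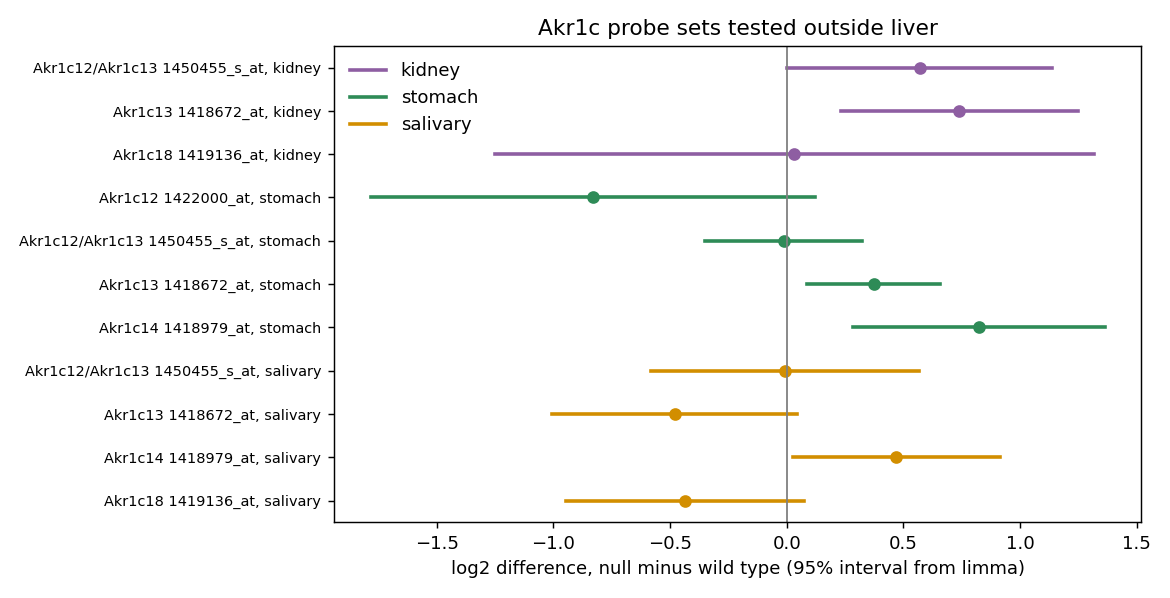
Log2 difference, null minus wild type, of the 11 Akr1c probe set and tissue pairs tested outside liver, with the 95% interval from limma (n = 3 arrays per group). Intervals are not adjusted for multiple testing, and only Akr1c14 in stomach, at 0.82, passed after adjustment.

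Averaged over the 4 tissues other than liver in a fit of all 30 arrays, 7 probe sets entered, but Akr1c6 and Akr1c20 did so through liver alone and were dim in all 4 tissues, so their averages carry no information on a change. The 5 others were all dim in brain. Akr1c14 was dim in kidney too, Akr1c18 in stomach, and Akr1c12 in kidney and salivary tissue, so the 5 averages mix dim and measured values. Of these 5, 0 were called (limma), against 17.2% of all 16690 probe sets tested, and 0 had an unadjusted p under 0.05. Their average differences ran from -0.52 for Akr1c18 (95% interval -1.15 to 0.12, adjusted p = 0.266) to 0.22 for Akr1c13 (-0.11 to 0.54, adjusted p = 0.374). An F test of the difference between the 4 tissues called 0 of the 5, against 9.21% of all, with 1 (Akr1c14) at an unadjusted p under 0.05. For Akr1c14 the dim tissues differed by -2.22 (kidney) and -1.12 (brain), against 0.82 in stomach and 0.47 in salivary tissue. For Akr1c18 they differed by -0.92 (stomach) and -0.73 (brain), against 0.03 in kidney and -0.44 in salivary tissue.

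Genes of the same chemistry were counted in liver from lists chosen with earlier results of these data known, each gene by its brightest probe set. Of 19 tested hydroxysteroid dehydrogenases and steroid reductases, 7 fell and 0 rose, with a list median of -0.47 against 0.03 over all tested probe sets. They included Hsd3b3, a 3β-hydroxysteroid dehydrogenase (-1.87 ± 0.23, SE; limma, adjusted p = 0.00404), Hsd17b2, which inactivates estradiol (-1.40), Rdh5, a retinol dehydrogenase (-1.29), and Hsd17b6 (-1.24). Of 12 tested enzymes of steroid and drug conjugation, 3 fell and 0 rose (median -0.41). All 3 were glucuronosyltransferases, Ugt2b5 at 7.80 ± 0.74 in null against 10.03 ± 0.15 in wild type (-2.23; adjusted p = 0.00549), Ugt2b1 (-1.61) and Ugt2b34 (-1.55). The filter on the 6-array mean left out genes with larger falls, Hsd3b2 (-3.09) and Sult1c2 (-3.02), at 6.12 and 6.03 in wild type. Among the untested genes of these lists, Sult1e1 (2.96), Hsd17b1 (1.38), Rdh16 (0.22), Sult3a1 (0.21) and Ugt2b38 (0.05) read higher on average in null.

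Of 20 tested genes of bile acid synthesis and transport, 4 fell and 0 rose (median -0.25). These were the bile salt exporter Abcb11 (-1.16), the sterol carrier Scp2 (-0.99), the bile acid importer Slc10a1 (-0.88) and Hsd3b7 (-0.83), an early enzyme of bile acid synthesis that is on the dehydrogenase list too. Several genes of the list missed the threshold, in both directions. The synthesis enzymes Cyp27a1 (1.10, adjusted p = 0.0519), Cyp7a1, which catalyses the rate-limiting step (1.17, adjusted p = 0.0616), and Cyp39a1 (0.91, adjusted p = 0.0723) were higher on average in null liver. Akr1d1, the 5β-reductase that acts just before 3α-reduction in this pathway, read 6.84 ± 0.70 in null and 7.86 ± 0.12 in wild-type liver (limma, adjusted p = 0.0761). Of 23 tested NRF2 and glutathione genes, 5 fell and 0 rose (median -0.31), among them the glutathione transferases Gsta3 (-1.36), Gstt1 (-1.30) and Gstp1 (-0.94) and the epoxide hydrolase Ephx1 (-1.02). The filter left Gsta4 untested, at 3.49 ± 1.21 in null and 6.75 ± 0.17 in wild-type liver. Of the untested genes of this list, only Slc7a11 (0.34) read higher on average in null.

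Of 9 tested aldo-keto reductases outside the 6 genes, only Akr1e1 fell and 0 rose (median -0.19). Of 7 tested genes of steroid hormone synthesis, 0 passed (limma; median -0.09). Of 13 tested nuclear receptors of liver and steroids, 5 rose and 0 fell (median -0.01): the clock repressor Nr1d2 (1.26), the bile acid regulator Nr5a2 (1.09), Esrra, the ERR paralog of Esrrg (1.01; 6.67 ± 0.17 in null and 5.66 ± 0.12 in wild type), and Hnf4a, a main regulator of hepatocyte genes (0.72), were the 4 largest. The drop of the 6 Akr1c genes thus stood beside lower signals in parts of 5 of the 7 lists and higher ones in the nuclear receptor list.

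**Figure D5:**
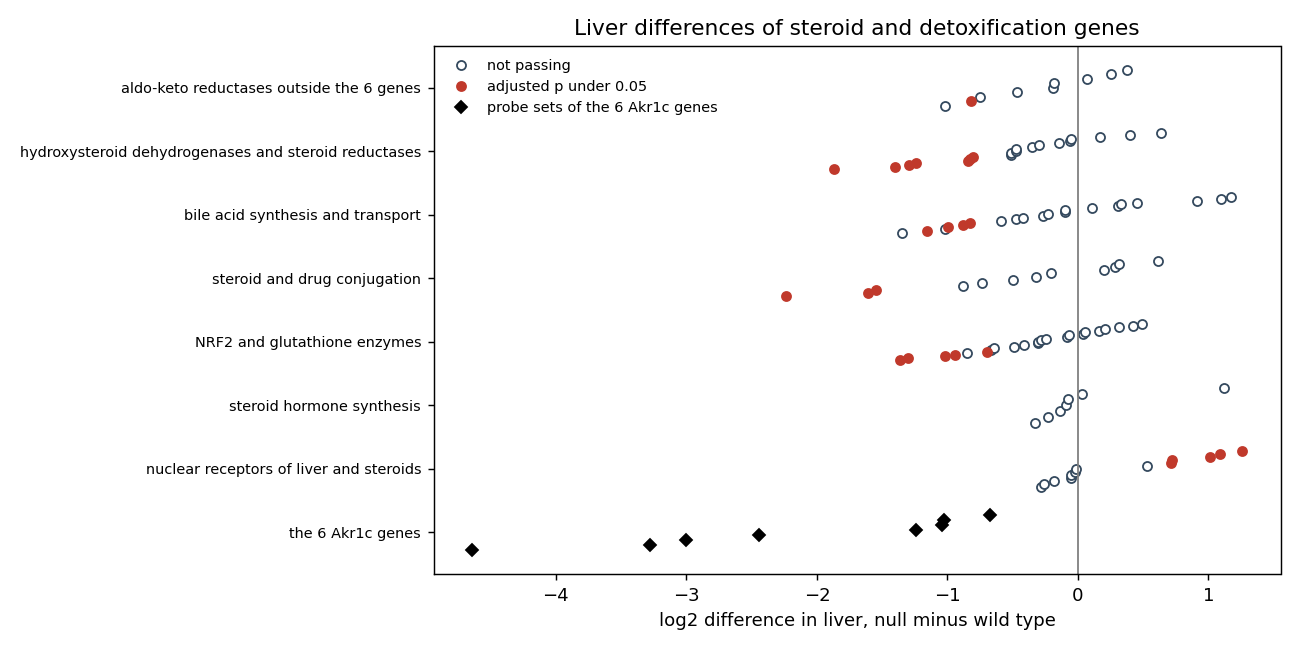
Log2 difference in liver, null minus wild type, of each tested gene of 7 pathway lists and of the 8 probe sets of the 6 Akr1c genes (diamonds). Filled points passed the limma test at an adjusted p under 0.05, and most of them lie under 0 except in the nuclear receptor list.

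Outside liver, where 25 list entries passed, 0 passed in brain, 3 in kidney, 20 in stomach and 9 in salivary tissue, a gene on 2 lists counting under each. These were 24.3% of the tested entries in liver, 3.49% in kidney, 23.5% in stomach and 12% in salivary tissue, against 6.93%, 0.781%, 23.5% and 8.22% of all tested probe sets there, so the stomach count is the background share. The lists were chosen with earlier results of these data known and take only the brightest probe set of each gene. These shares are therefore no measure of enrichment. In kidney all 3 were in conjugation: the sulfotransferase Sult1a1 (1.59) and Ugt3a2 (0.99) rose and Papss2, which makes the sulfate donor, fell by 0.64. Sult1a1 also rose in null salivary tissue (1.82) and stomach (1.20). In salivary tissue Akr1b10, a reductase of aldehydes, rose by 1.26 (limma, adjusted p = 0.00514), to 7.70 ± 0.26 in null against 6.44 ± 0.17 in wild type. In stomach 5 of 24 tested NRF2 and glutathione genes rose, among them Gsta2 (0.90) and Nqo1 (0.81), and 3 fell, Gstt1 (-0.64), Gstt2 (-0.55) and Txnrd1 (-0.48). Akr1d1 rose there by 0.61, and 4 of 15 tested dehydrogenases fell.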

How the data were processed

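Total RNA was extracted with Trizol and hybridized to Affymetrix MOE430A arrays, per the labels. The values the authors deposited are log2 signals, made with MAS5 per the submitters' processing notes. No version of MAS5 and no scaling target were found in the sources. Base 2 was settled from the values, since the 2% trimmed mean of the linear signals then lay between 149.988 and 150.008 on all arrays. Of 22690 probe sets, 64 array controls were set aside. Symbols came from the platform's probe table, which can be old. No 2 arrays held identical values.

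The 6 genes, the gene lists, tests and alternatives were chosen with earlier results of these data known. Null was compared with wild type within each tissue by limma 3.58.1 in R 4.3.3 (lmFit, eBayes with trend), over probe sets whose mean reached the 40th percentile, with Benjamini-Hochberg adjustment and a threshold of 0.05. A fit of 10 groups gave the average over the 4 tissues other than liver. Members have no test in liver. Exact permutation tests used 20 splits. The steps were tested on simulated data.

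Every probe set with a member symbol is named. Of each of 7 pathway lists, up to 4 genes per tissue that passed without overlap are named by size, and 3 genes per member by likeness of the 10 group means. Of 236 list and marker entries, 193 matched the array. Arrays give no read depth, and 3 arrays per group limit the precision. Alternatives were a floor, no filter, a 60th percentile filter, quantile normalization, equal medians, a fit over 30 arrays, a replicate block, covariates (Xist, Gapdh gap, Alb), no trend and leaving out each array. Same-numbered arrays of null and wild type had deviations correlated at -0.24 to 0.14 over 15 pairs, so the numbers were not taken as pairs. Promoters came from RefSeq on GRCm38.p6, with 5 of 6 genes matched.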

Additional observations from a re-analysis of the deposited data

How the results depend on the processing

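In liver, the median difference over the 8 probe sets stayed between -2.16 and -1.64 in 13 alternatives, and each probe set kept its sign in all. Part of this was fixed in advance. With no overlap between the groups, leaving out an array cannot turn a sign, and the balanced replicate block leaves every difference as it was. Since the fall in liver chose the genes, no weight rests on the kept signs. The counts of 0 calls in brain, kidney, salivary tissue and the average over 4 tissues stayed at 0 in all alternatives run, with the random block for genotype and replicate number among them. In stomach the count of 1 call, Akr1c14, did not hold: it was 0 with no filter, the 60th percentile filter, the fit over all 30 arrays, or a covariate (Xist, Alb or the Gapdh gap), and 2 with quantile normalization. Leaving out 1 stomach array gave 0 to 2 calls. Without the 2 wild-type stomach arrays of high Alb, a setting chosen after seeing the data like the random block, it was 0, and the 1 wild-type array left has no spread of its own and is assumed to vary like the null arrays. For Akr1c14 itself the adjusted p ran from 0.0153 to 0.516 and the difference from 0.31 to 1.72, and it kept its call in 6 of 17 alternatives. Akr1c13 in stomach passed with quantile normalization (adjusted p = 0.046) and without wild-type replicate 1 (adjusted p = 0.0314). The cause was not tested. With the replicate block, which the numbers do not bear out as pairs, the counts were 0 in brain, kidney and salivary tissue and 1 in stomach, so the block changed no call. The liver median of -1.84 could not move under it. The deposited signals hold no detection calls, so dim values limit the folds of Akr1c6, Akr1c14 and Akr1c20, whose null liver signals lie near the filter level.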
